A study of Homo sapiens with 39 samples.

Results

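The genes described here are CIITA and 7 genes of the MHC class II pathway: HLA-DRA, HLA-DRB1, HLA-DPA1, HLA-DPB1, CD74, HLA-DMA and HLA-DMB. They were taken by symbol from the gene-level table, where each symbol had 1 Ensembl identifier, and make up 8 of its 60671 distinct genes. RNA-seq was done on 39 libraries of A375 and WM115, both established human melanoma cell lines. The WT cells carry no deletion by their genotype label, and the clones lack an enhancer region of SOX10, the transcription factor of neural crest and melanocytic cells, called R1 or R4. For A375 there were 4 WT libraries, 3 of clone 1.1 and 4 of clone 1.2 (both R1 deleted), and 4 of clone 4.1 and 3 of clone 4.2 (both R4 deleted). For WM115 there were 4 WT libraries, 5 of clone 1.1 and 3 of clone 1.2 (both R1 deleted), and 3 of clone 4.1 and 3 of clone 4.2 (both R4 deleted). A further 3 WM115 libraries are of clone 1.3, whose title names R1 and whose genotype label names R4. It forms a separate group here and enters no comparison of the regions. Each group of deleted cells is 1 clone, so the deletion and other differences of that clone cannot be told apart. The labels name no drug or cytokine treatment.

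MHC class II molecules are pairs of an alpha and a beta chain that show peptides from the endosomal compartment to CD4+ T cells. Professional antigen-presenting cells make them all the time, while most other cells make them only after interferon gamma, and some melanomas make them without it. CIITA is the coactivator that switches the whole group on: it does not bind DNA itself but is held at the promoters by RFX, CREB and NF-Y proteins sitting on the W, X and Y boxes. CD74 is the invariant chain, which escorts new class II dimers and blocks their groove, and HLA-DM (the HLA-DMA and HLA-DMB chains) exchanges the leftover CD74 peptide for antigen.

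The promoters are shown because a shared promoter layout is the known feature of this gene group. Its part in the values below was not tested. RefSeq promoters (build GRCh38.p14, 250 bases before to 50 after the start) matched 6 of the 8 members by symbol, all but CIITA and HLA-DRA. The printed stretches run from base 166 to base 17 before the start, and for HLA-DPB1 to base 65, 5′ to 3′ on the strand of the gene. They are chr6:32589865-32590014 (minus strand), chr6:33075824-33075925 (plus strand), chr5:150412927-150413076 (minus strand), chr6:32953114-32953263 (minus strand) and chr6:32941045-32941194 (minus strand). Capitals mark ATTGG or its reverse complement CCAAT, the core of the Y box that NF-Y binds, and CTGATGATG, letters chosen after the sequences had been read.
HLA-DRB1: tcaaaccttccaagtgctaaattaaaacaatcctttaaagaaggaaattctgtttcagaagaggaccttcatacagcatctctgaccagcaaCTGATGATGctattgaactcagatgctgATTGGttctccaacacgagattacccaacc
HLA-DPB1: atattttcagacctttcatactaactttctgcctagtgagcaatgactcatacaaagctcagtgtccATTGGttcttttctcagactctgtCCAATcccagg
CD74: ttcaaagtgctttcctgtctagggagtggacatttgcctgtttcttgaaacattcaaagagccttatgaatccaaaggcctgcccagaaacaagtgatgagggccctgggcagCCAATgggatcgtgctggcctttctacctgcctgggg
HLA-DMA: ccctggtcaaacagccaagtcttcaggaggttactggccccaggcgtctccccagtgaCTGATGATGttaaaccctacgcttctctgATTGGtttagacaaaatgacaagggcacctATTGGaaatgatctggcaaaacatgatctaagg
HLA-DMB: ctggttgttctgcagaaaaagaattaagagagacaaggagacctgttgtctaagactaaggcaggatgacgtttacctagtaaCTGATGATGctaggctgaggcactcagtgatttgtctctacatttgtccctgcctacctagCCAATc

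All 5 printed promoters hold ATTGG on one strand or the other, and HLA-DPA1, whose windows overlap exons and are not printed, does not. Over 35116 RefSeq promoters of 300 bases, 34.6% hold ATTGG, so these letters alone are common. In CD74 they lie 53 bases before the start, in HLA-DRB1 46 and, outside the printed stretch, 195, in HLA-DMB 22, in HLA-DMA 79 and 49, and in HLA-DPB1 99 and 75. The 9 letters CTGATGATG were in 3 of the 6 members (HLA-DRB1 74, HLA-DMA 108 and HLA-DMB 83 bases before the start) and in 0.271% of all promoters (95 of 35116). They were chosen from these same promoters, so their share among the members is no test of enrichment. GCAACAG, searched as the core of the X1 box, was in 1 of 6 members, HLA-DPA1, and in 4.33% of promoters. TGCGTCA and TGACGTCA (forms of the X2 box), ATTTGCAT (the octamer) and TTCNNNGAA (the interferon gamma activated site) were in 0 of the 6 members and in 2.47%, 1.85%, 1.77% and 7.66% of promoters. Both strands were searched, for exact letters only. A box that differs in a letter is missed, so 0 does not mean that a box is absent. ATTGG and CTGATGATG did not overlap in the printed stretches.

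CIITA (ENSG00000179583) lies on chromosome 16 from 10866222 to 10943021 on the plus strand, and CD74 (ENSG00000019582) on chromosome 5 from 150401637 to 150412929 on the minus strand (GRCh38, GENCODE 29). The other 6 lie on chromosome 6: HLA-DRA (ENSG00000204287, 32439842 to 32445046, plus), HLA-DRB1 (ENSG00000196126, 32578769 to 32589848, minus), HLA-DMB (ENSG00000242574, 32934629 to 32941070, minus), HLA-DMA (ENSG00000204257, 32948613 to 32969094, minus), HLA-DPA1 (ENSG00000231389, 33064569 to 33080775, minus) and HLA-DPB1 (ENSG00000223865, 33075926 to 33087201, plus). HLA-DPA1 and HLA-DPB1 overlap by 4850 bases on opposite strands, and no source used here states whether reads were counted by strand, so the split between them is uncertain. HLA-DRB1, HLA-DRB5 and HLA-DRB6 share near-identical stretches, as do HLA-DQA1 and HLA-DQA2, and reads may have been split between them. Reads may also have been split between HLA-DQB1 and HLA-DQB2.

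Values are TPM, each gene's length-corrected share of its library, and read depth is unknown. Differences are on the log2(TPM + 1) scale, and a gene is "called" where limma's adjusted p was under 0.05 over all genes tested and the difference was at least 1. At 1 TPM or more, A375 libraries listed 14128 to 16140 genes and WM115 libraries 14084 to 15528. SOX10 itself ran from 629.8 to 706 TPM in A375 WT and from 449 to 553 TPM in WM115 WT. By group mean it was 513, 443, 777 and 559 TPM in A375 clones 1.1, 1.2, 4.1 and 4.2. In WM115 it was 408, 187, 439, 405 and 422 TPM in clones 1.1, 1.2, 1.3, 4.1 and 4.2, and all libraries lay below WT only in A375 clone 1.2 and WM115 clone 1.2. One library stands apart: replicate 3 of WM115 clone 1.2 had 9.56 TPM of SOX10 where its other two had 279 and 272. Across 16997 genes it correlated with those replicates at 0.942 to 0.944 and with WM115 WT at 0.884 to 0.891, while the 190 pairs of other WM115 libraries lay between 0.912 and 0.988. With the clone 1.3 libraries it correlated at 0.874 to 0.942, reaching the range of its own replicates, and whether it is the same clone was not tested. The class II results of clone 1.2 against WT and against clone 1.1 are therefore given with and without it. Replicate 3 of clone 1.3 correlated with WM115 WT at 0.953 to 0.976, above its 0.939 to 0.963 with its own replicates.

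**Figure D1:**
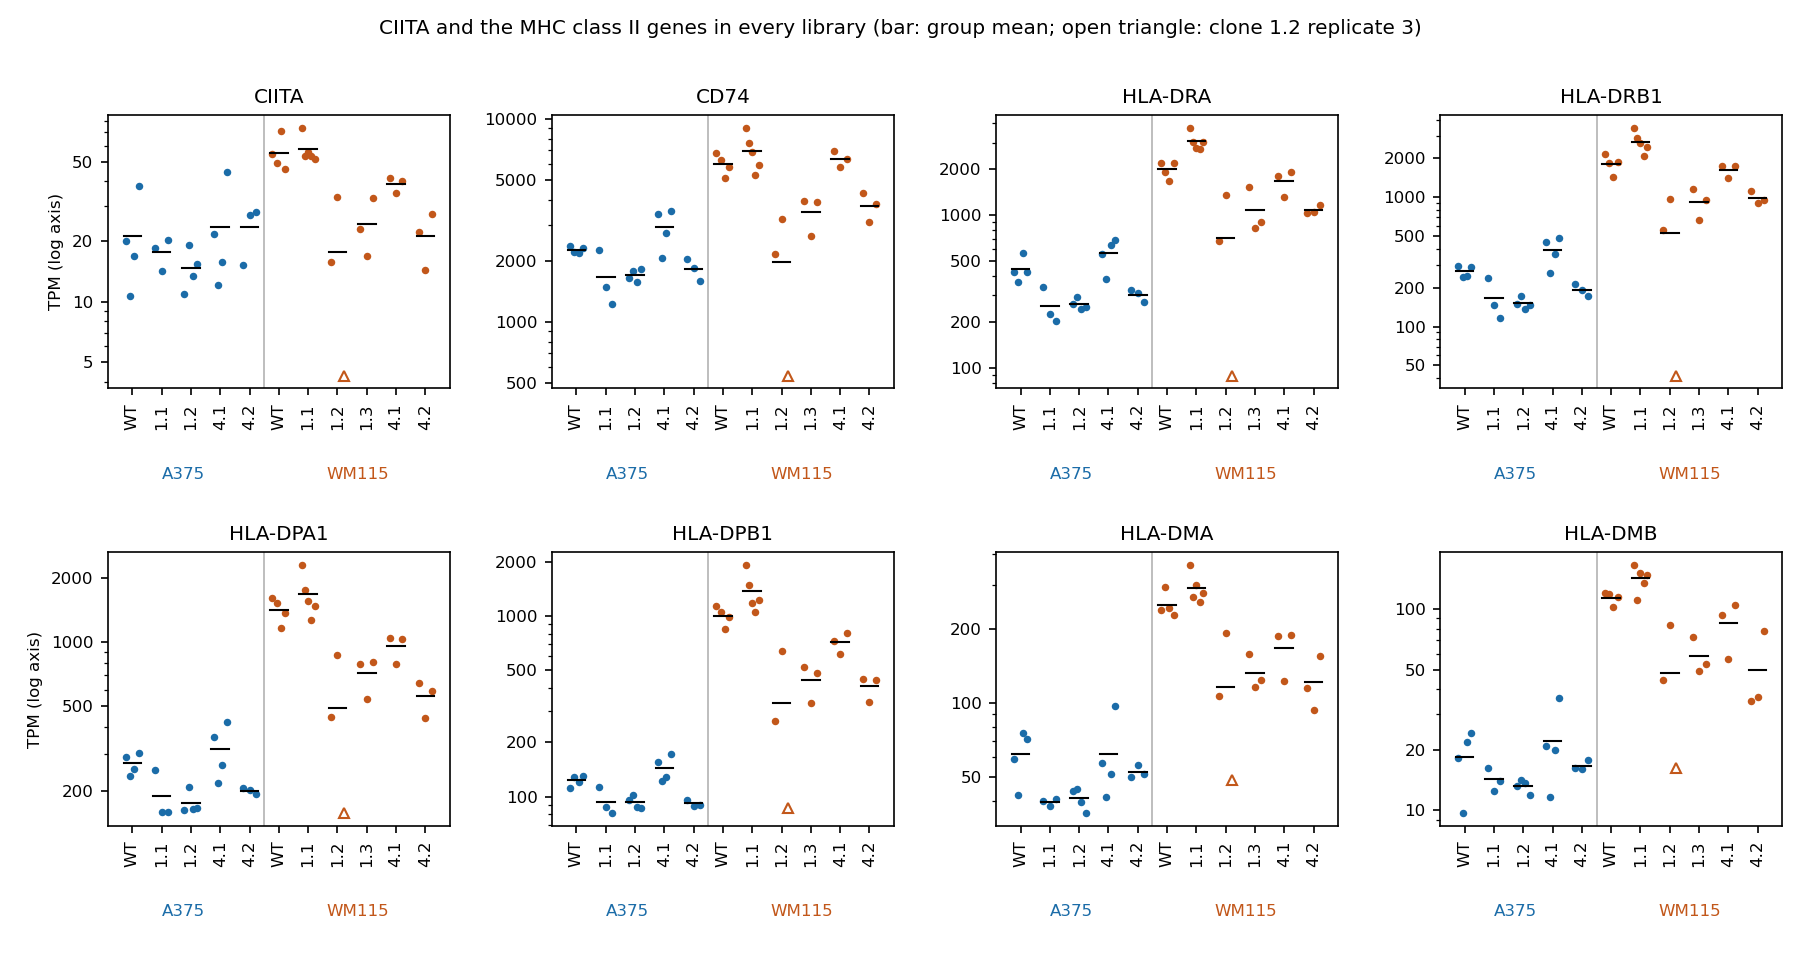
TPM of the 8 genes in all 39 libraries (log axis, 1 panel per gene), by line and clone, with a bar at each group mean and an open triangle for replicate 3 of WM115 clone 1.2. For each of the 8 genes the mean of WM115 WT lies above that of A375 WT, and the triangle is the lowest of the 21 WM115 points.

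The class II pathway was expressed in the WT cells of both lines and was higher in WM115. CIITA, the coactivator, stood at 20.2, 10.7, 16.8 and 37.6 TPM in the 4 A375 WT libraries and at 54.5, 49.2, 70.8 and 46.0 TPM in the 4 WM115 WT libraries. The ranges do not overlap, and the difference was 1.45 (SE 0.32, limma adjusted p = 0.00427), with means of 21.3 ± 11.6 and 55.1 ± 11 TPM (SD, n = 4 each). HLA-DRA, the single alpha chain of HLA-DR, had 426, 367, 565 and 423 TPM in A375 WT and 2197, 1919, 1686 and 2208 TPM in WM115 WT. The HLA-DRA difference was 2.18 (SE 0.17, limma adjusted p = 8.37e-06), and again no A375 value reached a WM115 value. CD74 was the most abundant of the 8 per length in both lines, at 2354, 2216, 2179 and 2313 TPM against 6764, 6244, 5134 and 5820.2 TPM.

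All 8 genes were called higher in WM115 WT than in A375 WT. Of the 16126 genes tested, 13.1% were called higher and 22.7% were called in either direction. The smallest ratios of mean TPM were those of CIITA (2.58) and CD74 (2.64), and the largest was that of HLA-DPB1 (8.18), a beta chain of HLA-DP, which averaged 123 ± 8.66 TPM in A375 and 1006 ± 123 TPM in WM115 (SD, n = 4 each). HLA-DRB1, the main beta chain of HLA-DR, was 6.80 times as high, HLA-DPA1 5.26 times, HLA-DMB 6.16 times and HLA-DMA 4.04 times. The median difference was 2.28 over the 8 genes and 0.04 over all genes tested. Chromosome 6 genes had a median of 0.62, and the 125 tested genes between 29 and 34 Mb of it other than HLA, TAP and PSMB genes had a median of 0.77. The mitochondrial share of TPM was 1.21% to 4.92% in A375 WT and 13.7% to 15.6% in WM115 WT. The part of these values in the result was not tested. The 8 genes took 0.325% to 0.359% of all TPM in A375 WT and 1.07% to 1.43% in WM115 WT.

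Over the 11 groups, mean CIITA ran from 57.6 ± 9.23 TPM (n = 5) in WM115 clone 1.1 and 55.1 ± 11 (n = 4) in WM115 WT to 14.8 ± 3.50 (n = 4) in A375 clone 1.2, each with its SD. Only 2 steps of that order separated neighbours whose libraries did not overlap: WM115 WT to WM115 clone 4.1 (38.8 ± 3.44, n = 3), and clone 4.1 to WM115 clone 1.3 (24.3 ± 8.16, n = 3). The remaining neighbours down to A375 clone 1.2 overlapped. WM115 clone 4.2 (21.3 ± 6.48, n = 3) lay among the A375 means, as did WM115 clone 1.2 (17.7 ± 14.6, n = 3), whose mean without replicate 3 was 24.4 TPM, above every A375 mean. HLA-DRA kept the lines apart by mean: the 6 WM115 groups had the 6 highest means, from 3056 ± 417 TPM (n = 5) in clone 1.1 to 709.9 ± 636 (n = 3) in clone 1.2 (1020.5 without replicate 3), and the highest A375 mean was 568 ± 134 (n = 4) in clone 4.1. Among HLA-DRA neighbours, WM115 clone 1.1 and WM115 WT did not overlap, nor did A375 WT and A375 clone 4.2 (301 ± 27.0, n = 3), and the other neighbours did. In CD74 the mean of WM115 clone 1.2 (1975 ± 1348, n = 3) lay below those of A375 clone 4.1 (2935 ± 674, n = 4) and A375 WT (2265 ± 81.6, n = 4), all with overlapping libraries. Without replicate 3 it was 2691 TPM, above A375 WT.

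WM115 clone 1.2, with R1 deleted, had less RNA of every member than WM115 WT. In bulk RNA, fewer cells making a gene and less RNA per cell cannot be told apart. CIITA was at 15.7, 33.2 and 4.26 TPM in replicates 1 to 3, below the lowest WT library (46.0). HLA-DRA was at 681, 1359.8 and 88.7 TPM, below the lowest WT value of 1686. CD74 was at 2166, 3217 and 541 TPM against at least 5134 in WT. In each gene replicate 2 was the highest and replicate 3 far the lowest, and for all 8 genes every clone 1.2 library lay below every WT library. Of all genes tested, 13.2% did so.

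All 8 genes were called lower in clone 1.2, where 3.11% of the 16997 genes tested were called lower and 7.61% in either direction. CIITA fell by 1.94 on the log2 scale (SE 0.40, limma adjusted p = 0.00353), to 32.1% of the WT mean. The chains that bind the peptide fell by 2.19 (HLA-DRA, limma adjusted p = 0.00954), 2.66 (HLA-DRB1, 0.00770), 1.84 (HLA-DPA1, 0.00268) and 2.03 (HLA-DPB1, 0.00292). CD74 fell by 1.94 (limma adjusted p = 0.00267), and the HLA-DM chains by 1.304 (HLA-DMA, 0.00689) and 1.51 (HLA-DMB, 0.00967), the smallest steps of the 8. The means were 28.8% (HLA-DRB1) to 46.4% (HLA-DMA) of WT, or 42.0% (HLA-DRB1) to 59.8% (HLA-DMA) without replicate 3, and the median difference was -1.94 against -0.02 over all genes. The share of TPM from mitochondrial genes was 8.75% to 11.8% in this clone and 13.7% to 15.6% in WT, without overlap, and its part in the class II result was not tested.

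Without replicate 3, 6 of the 8 genes were still called lower in clone 1.2, where 0.63% of genes tested were called lower. CIITA then differed by -1.21 (SE 0.28, limma adjusted p = 0.0181), HLA-DRA by -1.05 (SE 0.26, limma adjusted p = 0.0237), HLA-DRB1 by -1.29 (SE 0.25, limma adjusted p = 0.00517) and CD74 by -1.17 (SE 0.23, limma adjusted p = 0.00632). HLA-DPA1 (-1.18) and HLA-DPB1 (-1.28) were also called. HLA-DMA (-0.79, limma adjusted p = 0.0586) and HLA-DMB (-0.89, limma adjusted p = 0.0886) were not. A fit of only clone 1.2 and WT, with all libraries, gave the same differences and called 0 of the 8, with limma adjusted p from 0.0512 to 0.105. That fit called 787 of the 15747 genes tested, in either direction. SOX10 and the melanocytic genes DCT and MLANA were also called lower in this clone, DCT with a difference of -5.70 and MLANA with -3.57 (limma adjusted p = 0.00425 and 0.00577), or -3.86 and -3.24 without replicate 3. SOX10 differed by -2.44 (limma adjusted p = 0.0192) with replicate 3 and by -0.87 (limma adjusted p = 0.0123) without it. The genes of chromosome 16 had a median difference of -0.23 in this clone, and the 136 other genes tested between 29 and 34 Mb of chromosome 6 one of -0.08. The part of these values in the class II result was not tested.

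WM115 clone 4.2, with R4 deleted, was lower in CIITA, both HLA-DP chains and both HLA-DM chains. CIITA stood at 22.2, 14.5 and 27.3 TPM, all below WT, and differed by -1.35 (SE 0.40, limma adjusted p = 0.0229). HLA-DPA1 had 645, 440.2 and 590.4 TPM where WT had 1616, 1532, 1169 and 1379. HLA-DMB had 35.1, 36.6 and 77.7 TPM where WT had 119, 119, 102 and 115. Every clone 4.2 value lay below every WT value for all 8 genes, which was also so for 20.7% of genes tested.

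Of the 8 genes, 5 were called lower in clone 4.2, while 4.08% of genes tested were called lower and 6.6% in either direction. Beside CIITA these were HLA-DPA1 (-1.36, limma adjusted p = 0.0142), HLA-DPB1 (-1.303, 0.0300), HLA-DMA (-1.06, 0.0186) and HLA-DMB (-1.27, 0.0221). HLA-DRA had 1038, 1049 and 1168 TPM, 54.2% of the WT mean, and differed by -0.88 (SE 0.54, limma adjusted p = 0.261). CD74 had 4333, 3113 and 3788 TPM and differed by -0.68 (SE 0.38, limma adjusted p = 0.217). HLA-DRB1 differed by -0.88 (SE 0.63, limma adjusted p = 0.337). The calls depended on single libraries: 0 of the 8 were called without clone 4.2 replicate 2 (784 of 16932 genes called) and 1 without replicate 1 (909 of 16953). Without WT replicate 1 or WT replicate 2, 3 of the 8 were called (885 of 16926 and 958 of 16951 genes). The calls also fell to 2 of the 8 with no filter on low genes, where 908 of 36788 genes were called. Without replicate 3 of clone 1.2, which enters through the shared spread, 5 were called, with a CIITA adjusted p of 0.00123 (limma). The share of all genes called in that fit is not given here. The mitochondrial share of TPM was 4.71% to 12.7% in clone 4.2, below all WT libraries, and 5.24% to 10.8% in clone 4.1, also below them, and its part in the class II values was not tested.

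In WM115 clone 4.1, the other R4 clone, 0 of the 8 genes were called, while limma called 7.57% of all genes. CIITA was at 41.6, 35.0 and 39.8 TPM, below every WT library, and differed by -0.48 (SE 0.40, limma adjusted p = 0.407). CD74 was at 6982, 5806 and 6332 TPM, overlapping WT, and differed by 0.09 (SE 0.38, limma adjusted p = 0.887). HLA-DRA was at 1802, 1328 and 1918 TPM and overlapped WT. Every library lay below WT for 4 of the 8 genes and for 23.1% of genes tested. At an unadjusted p under 0.05, 6300 genes differed. Between clones 4.1 and 4.2, limma called 0 of the 8 and 2.63% of all genes, with 3620 genes at an unadjusted p under 0.05. The median over the 8 was 0.78 higher in clone 4.1, with differences from 0.46 (HLA-DMA) to 0.87 (CIITA). The genes of chromosome 16, where CIITA lies, had a median difference from WT of -0.46 in clone 4.1 and -0.28 in clone 4.2. For the 136 other genes tested between 29 and 34 Mb of chromosome 6 it was -0.35 and -0.38, against -0.10 over all genes in both clones. Their part in the differences of the 8 genes was not tested.

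WM115 clone 1.1, labelled with the same R1 deletion as clone 1.2, did not have the low values. CIITA was at 73.9, 53.3, 56.1, 53.0 and 51.7 TPM and overlapped WT, differing by 0.07 (SE 0.35, limma adjusted p = 0.915). HLA-DRA was at 3755, 3014, 2766, 2707 and 3037 TPM, above all 4 WT libraries, which was so for 7.05% of genes tested, and differed by 0.61 (SE 0.48, limma adjusted p = 0.383). CD74 was at 9064, 7640.4, 6901, 5316 and 5956 TPM and overlapped WT. limma called 0 of the 8 genes and 4.88% of all genes in this comparison, with 5968 genes at an unadjusted p under 0.05. Replicate 1 of clone 1.1 was the highest of the 21 WM115 libraries for all 8 genes. The median of all genes was -0.12 against WT on the deposited scale and 0.00 after median-of-ratios scaling, and the median of the 8 genes was 0.27 on the deposited scale.

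The difference between the clones 1.1 and 1.2 was tested in the same fit. All 8 genes were called higher in clone 1.1, as were 3.25% of all genes, and 11.8% of genes were called in either direction. HLA-DRB1 was higher by 3.22 (SE 0.60, limma adjusted p = 0.000588), HLA-DRA by 2.80 (SE 0.52, limma adjusted p = 0.000525) and CIITA by 2.01 (SE 0.38, limma adjusted p = 0.000658). The smallest step was that of HLA-DMA, 1.53 (SE 0.29, limma adjusted p = 0.000615). Without replicate 3 of clone 1.2 all 8 were still called and 1.2% of genes were called higher, with smaller differences of 1.85 (HLA-DRB1), 1.66 (HLA-DRA), 1.28 (CIITA) and 1.02 (HLA-DMA).

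In WM115 clone 1.3, labelled with R1 in its title and R4 in its genotype, CIITA was at 22.96, 16.9 and 33.1 TPM and HLA-DRA at 1529, 828 and 911 TPM. CD74 was at 3926, 2636 and 3908 TPM. All 3 libraries lay below WT for each of the 8 genes, and this was so for 7.08% of genes tested. limma called 0 of the 8 genes and 0.618% of all genes, with 2212 genes at an unadjusted p under 0.05. The differences ran from -0.80 (CD74) to -1.196 (HLA-DPB1), with limma adjusted p from 0.185 to 0.525. Without replicate 3 of clone 1.2, which adds to the shared spread of the line, 3 of the 8 were called lower: CIITA (-1.18, limma adjusted p = 0.0208), HLA-DPA1 (-1.0, 0.0345) and HLA-DPB1 (-1.196, 0.0211). In that fit 0.285% of genes were called lower. The WM115 clones are each compared with the same 4 WT libraries, so these comparisons are not independent of each other.

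**Figure D2:**
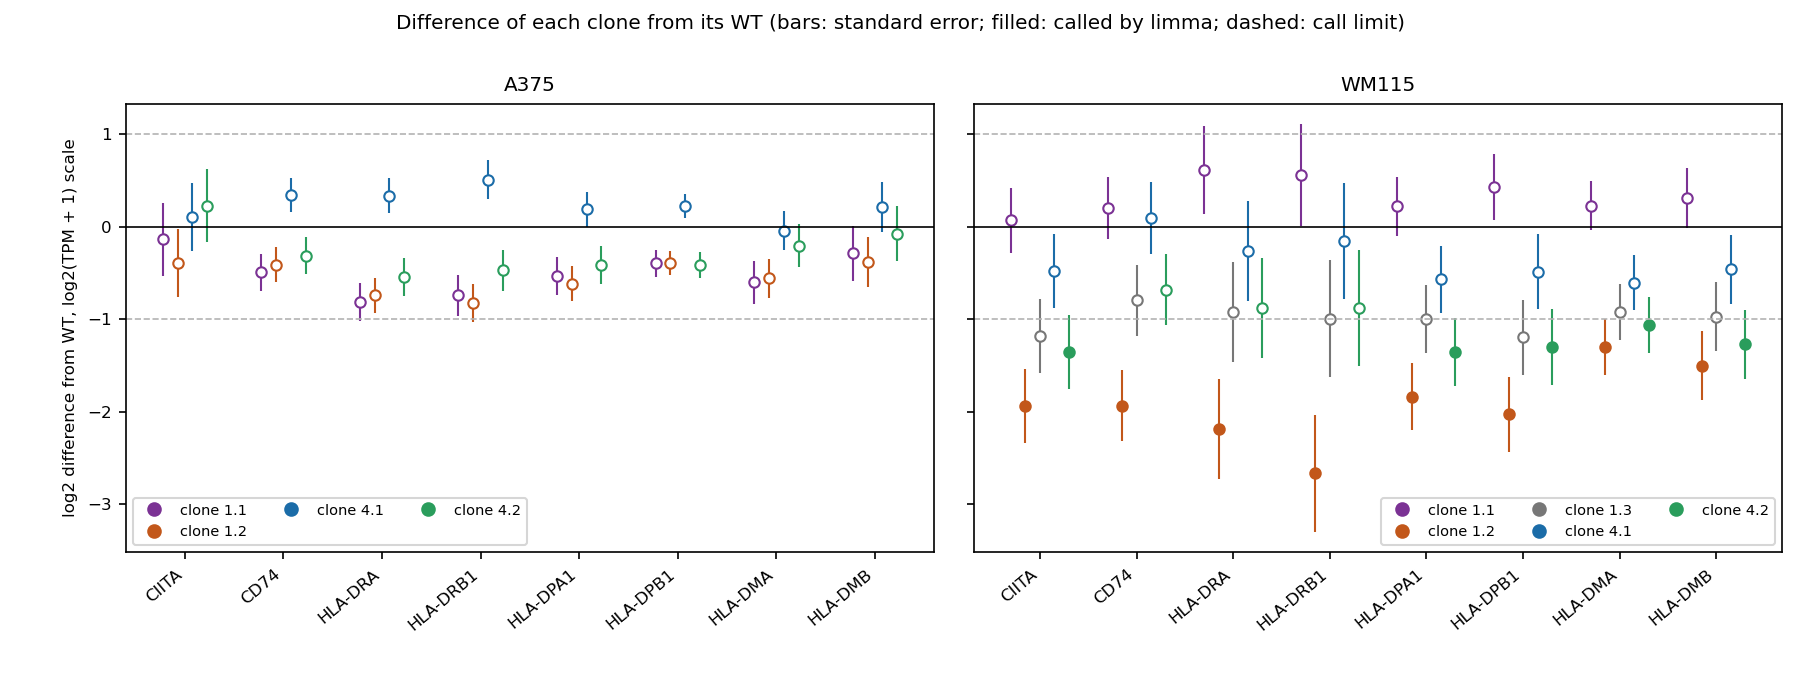
Difference of each clone from the WT of its line on the log2(TPM + 1) scale, for A375 (left) and WM115 (right), with 1 point per gene and clone, bars of 1 standard error and filled points where limma called the gene. All 8 points of WM115 clone 1.2 and 5 of clone 4.2 are filled below the dashed line at -1, and no A375 point is filled.

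In A375 the members differed less between clones and WT, and 0 of 8 were called in each of the 4 clones. limma called 0.731% of all genes in clone 1.1, 4.01% in clone 1.2, 0.653% in clone 4.1 and 0.473% in clone 4.2, with 1679, 3530, 1758 and 1297 genes at an unadjusted p under 0.05. CIITA overlapped WT in the 4 clones, at 18.5, 14.2 and 20.3 TPM in clone 1.1, 10.98, 19.3, 13.5 and 15.4 in clone 1.2, 21.8, 12.1, 15.8 and 44.3 in clone 4.1 and 15.3, 27.2 and 28.2 in clone 4.2. Its 4 differences lay between -0.39 and 0.23. Replicate 4 of clone 4.1 was the highest of the 18 A375 libraries for all 8 genes. WT replicate 4 was the highest WT library for CIITA, HLA-DPA1, HLA-DPB1 and HLA-DMB, but not for CD74, HLA-DRA, HLA-DRB1 or HLA-DMA. Same-numbered libraries of clone 4.1 and WT deviated together over genes, and the fit reported here did not pair them. With the replicate number as a block, 0 of the 8 were called in clone 4.1 as well.

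HLA-DRA and HLA-DRB1 were the members that differed furthest in A375. HLA-DRA was at 339.9, 225 and 203 TPM in clone 1.1 and at 264, 292, 245 and 249.9 TPM in clone 1.2, all below the 4 WT libraries. In clone 1.2 the differences were -0.74 (SE 0.19, limma adjusted p = 0.0216) for HLA-DRA and -0.82 (SE 0.21, limma adjusted p = 0.0187) for HLA-DRB1, under the size needed for a call. In clone 1.1 they were -0.81 (SE 0.21, limma adjusted p = 0.0725) and -0.74 (SE 0.22, limma adjusted p = 0.156), and both were called without replicate 1 of clone 1.1, the highest of its 3 (HLA-DRA -1.04, HLA-DRB1 -1.03). That fit called 223 of 16638 genes. Every library lay below WT for 3 of the 8 genes in clone 1.1, 5 in clone 1.2, 0 in clone 4.1 and 5 in clone 4.2. Of all genes tested, 4.71%, 5.33%, 3.27% and 3.03% did so.

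The R4 clones of A375 lay on different sides of WT by their medians over the 8 genes, 0.22 in clone 4.1 and -0.37 in clone 4.2, against -0.02 and 0.06 over all genes. CD74 was at 3413, 2061, 2751 and 3516 TPM in clone 4.1 and 2045, 1851 and 1593 TPM in clone 4.2. HLA-DRA was at 556, 385, 643 and 689 TPM in clone 4.1 and 323, 309.5 and 271 TPM in clone 4.2, without overlap. Tested against each other, 0 of 8 were called and 2.23% of all genes were, with 3722 genes at an unadjusted p under 0.05. HLA-DRB1 was higher in clone 4.1 by 0.98 (SE 0.22, limma adjusted p = 0.0215) and HLA-DRA by 0.88 (SE 0.21, limma adjusted p = 0.0245), just under the size of a call. Either or both were called with median-of-ratios scaling (HLA-DRB1 1.06), quantile normalization (HLA-DRA 1.01, HLA-DRB1 1.09), without clone 4.1 replicate 2 (1.06 and 1.16) and without clone 4.2 replicate 1 (HLA-DRB1 1.05). In that order these fits called 369 of 16692, 381 of 16692, 198 of 16616 and 696 of 16630 genes. CIITA differed by -0.12 (SE 0.39, limma adjusted p = 0.868) between these clones. Clones 1.1 and 1.2 of A375 differed by -0.08 (CD74) to 0.25 (CIITA), with 0 of 8 called and 6.16% of all genes called, and 5075 genes at an unadjusted p under 0.05.

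With the clone as the unit, the 4 R1 clones were compared with the 4 R4 clones of both lines, with the line as a covariate. limma called 0 of the 8 genes and 0% of 15287 genes, and 658 genes had an unadjusted p under 0.05. The members differed by -0.67 (HLA-DRB1) to -0.07 (HLA-DMB), with standard errors of 0.32 to 0.60. In a fit without replicate 3 of WM115 clone 1.2 the differences ran from -0.33 (CD74) to 0.09 (HLA-DMB), with 0 of 8 called. Among the WM115 groups, clone 1.1 had the highest mean of all 8 genes, and clone 1.2 the lowest of all 8 with replicate 3 and of 3 (CD74, HLA-DRA and HLA-DRB1) without it.

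Members went up and down together across libraries, more evenly in WM115 than in A375. Over the 21 WM115 libraries the Pearson r of log2 values between CIITA and the other 7 genes was 0.917 to 0.964 (median 0.931), and among those 7 it was 0.851 to 0.992. Without replicate 3 of clone 1.2, r with CIITA was 0.858 to 0.936. Over the 18 A375 libraries r with CIITA was 0.335 (HLA-DPB1) to 0.806 (HLA-DMB), with a median of 0.417, while among the other 7 it had a median of 0.903. The HLA-DM chains were the 2 members nearest to CIITA in A375 (0.726 for HLA-DMA). Libraries of 1 clone share that clone, TPM share a total, and CIITA was at a lower level in A375, so these values are descriptions.

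HLA-DRA was higher per unit of CIITA in WM115 than in A375, by the median of every group. The median ratio of their TPM was 27.4 in A375 WT, 28.6 in clone 4.1, 17.2 in clone 1.2, 15.9 in clone 1.1 and 11.4 in clone 4.2. In WM115 it was 39.7 in WT, 51.0 in clone 1.1, 41.0 in clone 1.2, 48.9 in clone 1.3, 43.3 in clone 4.1 and 46.7 in clone 4.2. The lowest and highest single libraries were 11.2 and 34.4 in A375 WT, and 23.8 and 48.0 in WM115 WT, and the medians of the other groups lie within the range of their WT except those of WM115 clones 1.1 and 1.3, which lie above it.

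**Figure D3:**
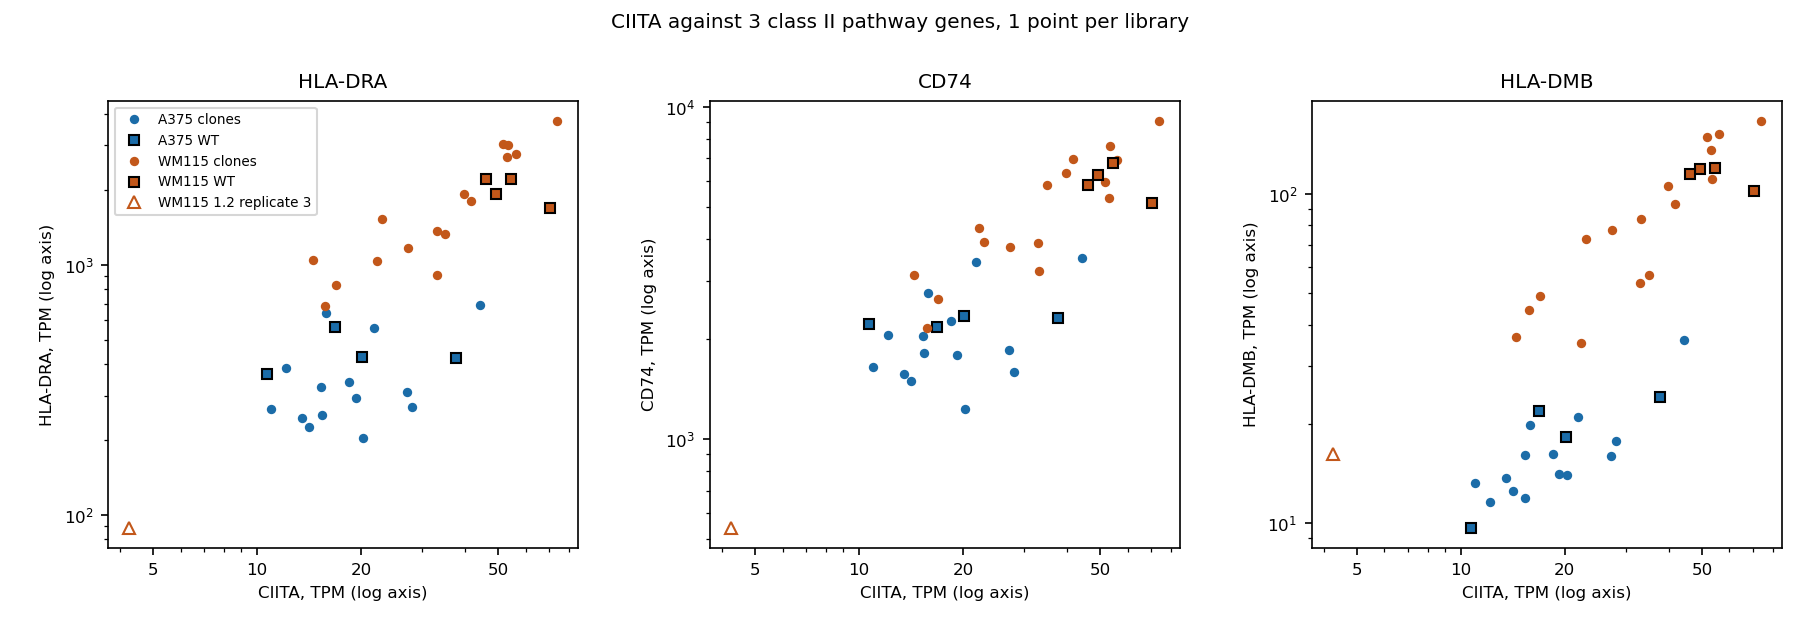
TPM of HLA-DRA, CD74 and HLA-DMB (y, log axis) against TPM of CIITA (x, log axis), 1 point per library, with A375 in blue, WM115 in orange, WT as squares and replicate 3 of WM115 clone 1.2 as an open triangle. In WM115 the points of all 3 genes rise with CIITA (r of at least 0.917 over 21 libraries), while in A375 HLA-DRA and CD74 spread widely at a given CIITA.

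Outside the class II genes, the genes whose line-centred log2 values were most like CIITA over the 39 libraries, among 15287 tested in both lines, were VARS1 (r = 0.858), WDR3 (0.851), FARSA (0.845), HEATR5A (0.836) and AC026464.4 (0.831). The members themselves ranged from 0.808 (HLA-DRA) to 0.903 (HLA-DMB). Without replicate 3 of WM115 clone 1.2 the values of VARS1 and WDR3 were 0.790 and 0.786, and that of HLA-DRA was 0.684. The genes most like HLA-DRA were AL139383.1 (0.886), TPMT (0.876), LINC02119 (0.869), KDM1B (0.857) and CPN1 (0.851), below HLA-DRB1 (0.982) and CD74 (0.950). Without that library TPMT stood at 0.850, HLA-DRB1 at 0.964 and AL139383.1 at 0.798.

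CIITA has several promoters, used in different cell types, and the transcript table separates its annotated starts. Estimates for transcripts of 1 gene share reads, so small shares are uncertain. The 18 CIITA transcripts summed to the gene value within 0.0005 TPM. Transcripts starting at 10877198 to 10877331 on chromosome 16 (8 transcripts) held 83.1% to 95.9% of CIITA in the 18 A375 libraries and 72.0% to 96.0% in the 21 WM115 libraries. The most upstream start (2 transcripts, 10866222 to 10866260) held 0% to 1.2% in A375 and 0% to 1.38% in WM115, the next start downstream (1 transcript at 10878969) 0.424% to 11.2% over both lines, and 7 transcripts starting within the gene 1.72% to 16.7%. WM115 clone 1.2 had 86.0% ± 3.01 (SD, n = 3) at the main start, with 89.5%, 84.7% and 83.96% in replicates 1 to 3, and WM115 WT 85.8% ± 5.98 (SD, n = 4). The most abundant single transcript, CIITA-214, made up 39.6% to 55.8% of the gene by group mean, and CIITA-201 16.2% to 22.7%. For CD74, CD74-202 made up 65.4% to 69.7% and CD74-203 24.1% to 26.6% by group mean.

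**Figure D4:**
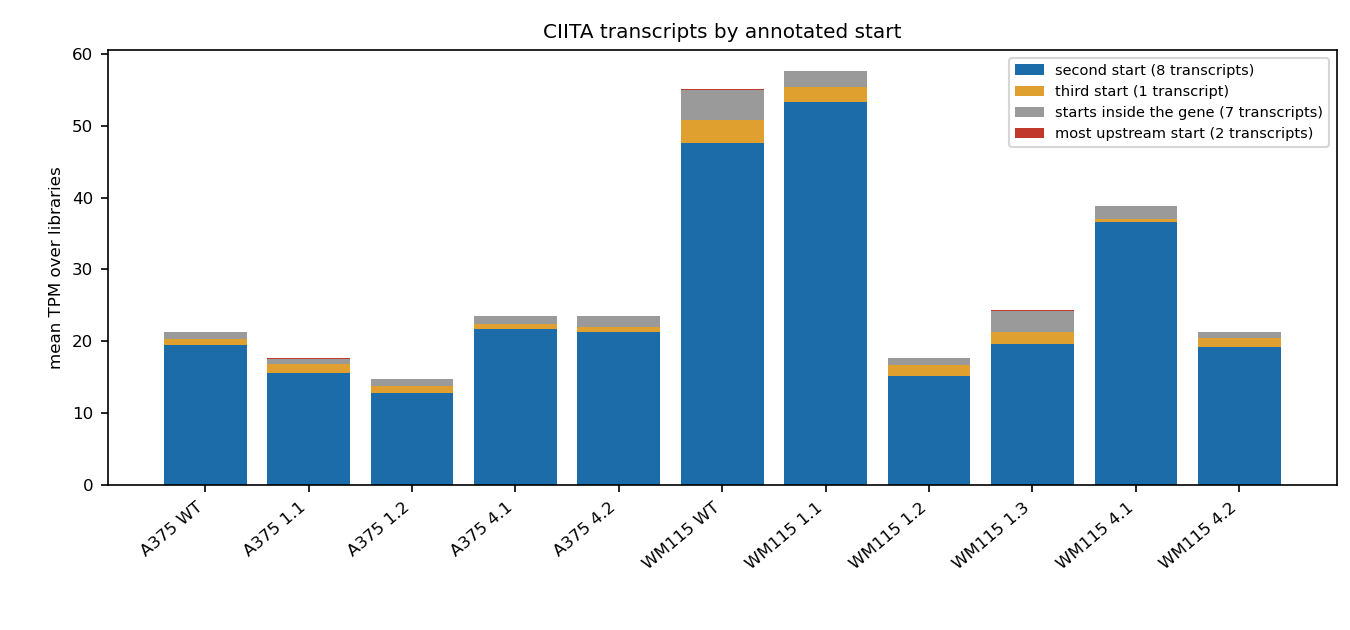
Mean CIITA TPM over the libraries of each group, stacked by annotated transcript start. The second start makes up most of every bar, with group means of 82.7% to 94.1% of CIITA.

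The other class II genes cover the HLA-DQ pair, the second HLA-DR beta chain and HLA-DO, which restrains HLA-DM. Of 10 listed, 8 were analysed (HLA-DRB5, the pseudogene HLA-DRB6, HLA-DQA1, HLA-DQA2, HLA-DQB1, HLA-DQB2, HLA-DOA and HLA-DOB). Reads may be shared among the HLA-DRB, the HLA-DQA and the HLA-DQB genes, so these 8 are not independent of each other or of HLA-DRB1. All 8 were called higher in WM115 WT than in A375 WT. HLA-DQA1 was at 36.3, 46.0, 46.7 and 34.7 TPM in A375 WT and 735, 592, 448 and 614 in WM115 WT, a ratio of means of 14.6. In WM115 clone 1.2 all 8 were called lower, led by HLA-DQA1 at 91.1, 290.4 and 0.283 TPM (-4.18, SE 1.05, limma adjusted p = 0.0103). Without replicate 3, 6 of the 8 were called lower there, HLA-DQA1 by -1.85 (limma adjusted p = 0.00447). All 8 were called higher in WM115 clone 1.1 than in clone 1.2, and 7 of 8 without that library.

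In WM115 clone 4.2, 2 of the 8 were called lower, beside 4.08% of genes tested: HLA-DOB (-2.10, SE 0.39, limma adjusted p = 0.00134) and HLA-DQA2 (-2.44, SE 0.85, limma adjusted p = 0.0482). HLA-DQA1 there was at 111, 108 and 116 TPM, below all WT libraries, and was not called (-2.39, limma adjusted p = 0.114). Without replicate 3 of clone 1.2, a choice made after seeing the data, it was called (-2.39, limma adjusted p = 4.83e-05), among 6 of 8 lower. The share of all genes called in clone 4.2 in that fit is not given here. In clone 1.3 the same fit called 5 of 8 lower, HLA-DQA1 by -1.95, beside 0.285% of all genes. The fit of all libraries called 0 of the 8 there. Genes of these 8 may share reads, so the counts are not of independent genes. HLA-DOA in WM115 clone 1.1 was at 351, 200.5, 197, 146 and 225 TPM, above the WT values of 103, 109, 87.0 and 86.6, and was not called in the fit of all libraries (1.15, limma adjusted p = 0.291). Without that library it was (1.15, limma adjusted p = 0.00512).

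In A375 the HLA-DQ alpha chains passed the test where the 8 members did not. HLA-DQA1 was at 25.02, 11.8 and 5.84 TPM in clone 1.1 and at 14, 12.2 and 7.84 TPM in clone 4.2, below every WT library, and differed by -1.66 (SE 0.31, limma adjusted p = 0.0112) and -1.79 (SE 0.31, limma adjusted p = 0.00737). In clone 4.1 it was at 80.8, 58.8, 67.7 and 80.1 TPM, above every WT library and not called (0.80, limma adjusted p = 0.257). Clone 4.1 exceeded clone 4.2 by 2.59 (SE 0.31, limma adjusted p = 0.000115). HLA-DQA2 was called in the same 3 comparisons, and its reads cannot be fully separated from those of HLA-DQA1. HLA-DOA was called lower in clones 1.2 (-1.27) and 4.1 (-1.49), with limma adjusted p of 0.0288 and 0.0412, at group means of 2.23 ± 0.669 and 1.92 ± 1.28 TPM against 6.81 ± 1.57 in WT (SD, n = 4 each).

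**Figure D5:**
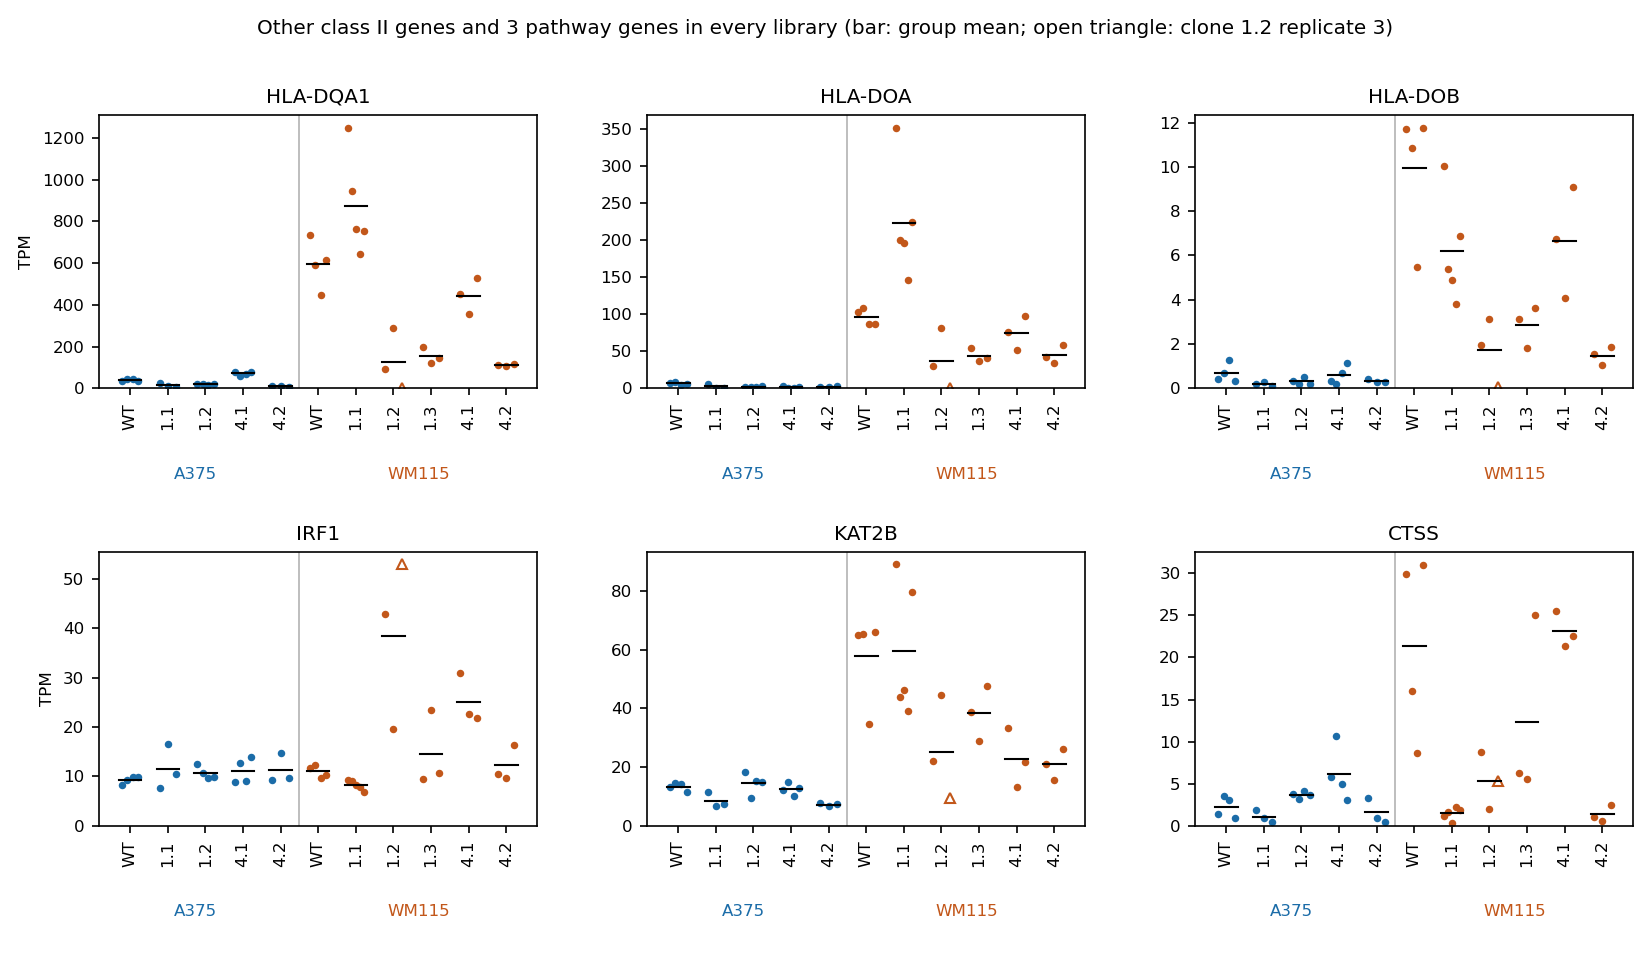
TPM of HLA-DQA1, HLA-DOA, HLA-DOB, IRF1, KAT2B and CTSS in all 39 libraries (linear axes from 0), with a bar at each group mean and an open triangle for replicate 3 of WM115 clone 1.2. HLA-DQA1 in WM115 clone 4.2 (111, 108 and 116 TPM) lies below all 4 WT libraries, and the IRF1 points of clone 1.2 lie above WT.

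Interferon gamma induces CIITA through JAK kinases and IRF1. IFNG itself was listed at 0 in all 39 libraries. Of 9 listed genes, 8 were tested in WM115 and 7 in A375, and 0 were called in the A375 comparisons or between the WT lines. IRF1 was at 42.9, 19.5 and 53.1 TPM in WM115 clone 1.2 and 11.7, 12.3, 9.71 and 10.2 in WT, and was called higher in that clone (1.61, SE 0.29, limma adjusted p = 0.00149). Without replicate 3 IRF1 differed by 1.33 (SE 0.31, limma adjusted p = 0.0174). SOCS1, a feedback inhibitor of JAK signalling, was also called higher in that clone (1.58 with and 1.06 without replicate 3). IFNGR2, a receptor chain, was called higher in clones 4.1 (1.22) and 4.2 (1.12), and IRF1 in clone 4.1 (1.11). In clones 4.2 (10.5, 9.68 and 16.4 TPM) and 1.3 (9.38, 23.4 and 10.8 TPM) IRF1 overlapped WT, while CIITA lay below WT. The part of these genes in the CIITA values was not tested.

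Of 11 promoter factors and coactivators (RFX5, RFXANK, RFXAP, the NF-Y subunits, CREB1, ATF1, CREBBP, EP300 and KAT2B), all tested in both lines, 0 were called in the A375 clones. KAT2B, a histone acetyltransferase that works with CIITA, was at 65.0, 65.3, 34.7 and 66.1 TPM in WM115 WT, 33.3, 13.2 and 21.8 in clone 4.1 and 21.0, 15.4 and 26.2 in clone 4.2. It was called lower in both, by -1.35 (SE 0.42, limma adjusted p = 0.0245) and -1.41 (SE 0.42, limma adjusted p = 0.0226). In clone 1.2 it was called with replicate 3 (-1.37, limma adjusted p = 0.0253) and not without it (-0.82, limma adjusted p = 0.229). Between the WT lines KAT2B was higher in WM115 (2.0), and RFXANK (-1.17) and ATF1 (-1.51) were lower.

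Of 6 listed regulators of CIITA transcription, 4 were tested in WM115 and 3 in A375. PRDM1, which represses CIITA in plasma cells, was called higher in A375 clone 1.2 (1.15, SE 0.24, limma adjusted p = 0.00585), where CIITA differed by -0.39 and was not called. IRF4 was called lower in WM115 clone 1.2 (-2.40, limma adjusted p = 0.0166), a call lost without replicate 3 (-1.12, 0.126), and was higher in WM115 WT than in A375 WT (5.37). MYC was called higher in WM115 clone 1.1 (1.22) and lower in clones 4.1 (-1.83) and 4.2 (-1.74).

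Among genes of endolysosomal processing, 9 of 11 listed symbols were tested in A375 and 8 in WM115. CTSS, the protease that makes the last cut in CD74, was at 29.9, 15.98, 8.68 and 31.0 TPM in WM115 WT. Those values differed widely. It was called lower in clones 1.1 (-3.09, limma adjusted p = 9.31e-05) and 4.2 (-3.18, limma adjusted p = 0.000387), at 1.14, 1.61, 0.368, 2.26 and 1.91 TPM in clone 1.1 and 1.07, 0.508 and 2.48 TPM in clone 4.2. In clone 1.2 it was called with replicate 3 (-1.82) and not without it (-1.90, limma adjusted p = 0.0617). CTSS was therefore called lower in clone 1.1, where the class II genes were not. CTSH was called higher in clone 1.2 (1.37, and 1.09 without replicate 3), and CTSL lower in clones 4.1 (-1.24) and 4.2 (-1.03). Of the CD74 partners MIF, DDT and CD44, which bind it at the cell surface, 0 of 3 were called in any of the 15 comparisons. All 15 had between 658 and 8855 genes of the whole table at an unadjusted p under 0.05 (limma).

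MHC class I genes and their coactivator NLRC5 give the neighbouring pathway. NLRC5 was called lower in WM115 clone 4.2 (-1.60, SE 0.28, limma adjusted p = 0.00104), at 2.04, 1.82 and 3.48 TPM against 9.42, 10.9, 8.80 and 8.06 in WT, and 0 of 7 were called in clones 1.2, 1.3 and 4.1. B2M was called lower in clone 1.1 (-1.01). In A375, HLA-B was called lower in clone 1.2 (-1.203), and HLA-B (1.67) and HLA-C (1.23) higher in clone 4.1 than in clone 4.2. Between the WT lines 6 of 7 were higher in WM115.

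Markers of immune cells, which carry class II in tissue, were at low levels for B and T cells and higher for the myeloid list. Summed over 4 B cell markers the level was 0 to 0.648 TPM per library, and over 4 T cell markers 0 to 1.03 TPM. MS4A1 was listed at 0 in 38 of 39 libraries, PTPRC, the pan-leukocyte marker, reached 0.483 TPM at most and CD14 1.19 TPM. The sum of 8 myeloid and dendritic markers was 4.48 to 14.7 TPM in A375 and 0.149 to 14.1 TPM in WM115, where it was higher in some WT libraries. LYZ reached 12.3 TPM and ITGAX 9.06 TPM, both in A375, and ITGAM 10.96 TPM in WM115 WT. By group it ran from 0.748 to 14.1 in WM115 WT, 0.149 to 0.952 in clone 1.1, 1.60 to 2.54 in clone 1.2, 0.641 to 11.1 in clone 1.3, 0.883 to 1.31 in clone 4.1 and 0.350 to 0.684 in clone 4.2. ITGAM of this list was called lower in WM115 clones 1.1, 1.2, 4.1 and 4.2, the call in clone 1.2 being lost without its replicate 3 (-1.84, limma adjusted p = 0.121). The lowest medians of these sums in WM115 were those of clone 1.1 (0.469 TPM) and clone 4.2 (0.472 TPM). Clone 1.1 had the highest mean level of all 8 class II members. Clone 4.2 had 5 of the 8 called lower, beside 4.08% of genes tested. The sum of 7 melanocytic markers was 405 to 967 TPM in A375 and 27.3 to 2762 TPM in WM115, lowest in replicate 3 of clone 1.2. Of the 7, limma called 1 lower in WM115 clone 1.1, 4 in clone 1.2, 5 in clone 4.1, 4 in clone 4.2 and 0 in clone 1.3. Of all genes, limma called 4.88%, 7.61%, 7.57%, 6.6% and 0.618% there in either direction. In clone 1.2 the count was 2 without replicate 3, where 0.63% of genes tested were called lower. MITF, the regulator of pigment genes, was among them in clones 4.1 (-3.40) and 4.2 (-2.80). In these 2 clones 0 and 5 class II members were called, beside 7.57% and 6.6% of all genes. In A375, 1 of the 4 melanocytic markers tested was called lower in clone 1.1, beside 0.731% of all genes in either direction, and 0 in the other clones. Summed over 6 endothelial and fibroblast markers the level was 1.23 to 12.1 TPM in A375 and 2.16 to 27.2 TPM in WM115. Of the 4 tested in WM115, LUM was called lower in clones 1.1, 1.2 and 4.2, and PECAM1 higher in clones 1.2, 4.1 and 4.2. PECAM1 was at 2.23, 4.90 and 12.0 TPM in clone 1.2 and was not called there without replicate 3 (1.11, limma adjusted p = 0.117). The part of these markers in the class II differences was not tested.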

How the data were processed

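Gene-level and transcript-level values of 39 libraries were used as deposited by the authors, in TPM, 1 table of each kind. Per the submitters' processing notes the tools and builds named are DRAGEN and GRCh38, with no version. The annotation release and whether counting used strand are not given in the sources used here. Per the labels' protocols, total RNA was purified with a column kit, poly-A RNA was selected with oligo-dT, and cDNA was primed with random hexamers. Over distinct genes the deposited TPM sum to 999999.9 to 1000000.1 in each library, so the values carry no depth and no counting interval was computed. There were 200 repeated lines among genes and 1123 among transcripts that differ from another line in the Entrez identifier alone, and each was used once. Each of these tables has 6 columns of values that match no sample, which were not used. Gene and transcript positions are those of GENCODE 29 (GRCh38).

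Libraries were grouped by line and clone from the labels. No source used here says that libraries of a group come from separate cultures, so p-values measure the spread between these libraries, which may be technical. Genes with at least 1 TPM in at least 3 libraries (16692 in A375, 16997 in WM115, 16126 for the WT lines and 15287 for R1 against R4) were tested on log2(TPM + 1), which understates changes of low genes, with limma 3.58.1 in R 4.3.3. One coefficient per group was fitted over all groups of a line, with empirical Bayes moderation and a variance trend. Tests are two-sided and adjusted with Benjamini-Hochberg over all genes tested. A call needs an adjusted p under 0.05 and a log2 difference of at least 1. The WT lines were compared in a fit of their own, and R1 with R4 over clone means with the line as a covariate. The fit was tested on simulated data. Summaries and figures used Python 3.11.15, numpy 2.4.6, pandas 2.3.3 and matplotlib 3.10.9.

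The members, gene lists and alternatives were chosen with earlier results of these data known. The 8 members are always named. From the lists (other class II, interferon gamma signalling, promoter factors, regulators of CIITA, endolysosomal processing, CD74 partners, class I, and cell type markers) at most 3 called genes per list and comparison may be named, largest first, along with the 5 genes most like CIITA and HLA-DRA. Other genes of the lists, among them SOX10, IFNG and the immune cell markers, are named as checks or where a call in another group or fit is set beside them, outside that rule. Some genes of the lists are not reported here and enter no count or sum of a list. Replicate numbers are shared by groups in the labels. Same-numbered libraries deviated together in every pair (r of 0.326 to 0.776 over genes, 4 pairs) only for A375 clone 4.1 against WT among the 13 comparisons within a line, so only there do the numbers pair libraries, as a reading of the data and not of the labels. Alternatives covered the pseudocount (0.1), filters (mean TPM of 5, none), scaling, variance trend, groups in the fit, replicate block, minimum difference and leaving out each library or clone.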

Additional observations from a re-analysis of the deposited data

Results flagged for a closer look

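In WM115 clone 1.1, CIITA in replicate 1 was 73.9 TPM, apart from the other 4 libraries (51.7 to 56.1 TPM). Its gap to the next library was 0.774 of the whole range of the group, past the 0.710 that Dixon's test allows for 5 libraries. In A375 clone 1.2, HLA-DPA1 in replicate 2 was 208 TPM where the other 3 were 163 to 167 TPM, a gap of 0.903 against a limit of 0.829 for 4 libraries. These were 2 of 40 groups and genes examined, and chance alone sets apart about 1 in 20.

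The effects of WM115 clones 1.1 and 1.2, both labelled with the R1 deletion and compared with the same WT, differed for all 8 genes by limma. The difference (clone 1.1 less clone 1.2, log2 scale) was 2.01 for CIITA, 2.80 for HLA-DRA, 3.22 for HLA-DRB1, 2.06 for HLA-DPA1, 2.46 for HLA-DPB1, 2.14 for CD74, 1.53 for HLA-DMA and 1.81 for HLA-DMB, with limma adjusted p from 0.000139 to 0.000849. In this comparison 3.25% of all genes were called higher in clone 1.1, and 7669 of 16997 genes had an unadjusted p under 0.05 (limma). With replicate 3 of clone 1.2 left out, the differences were 1.02 (HLA-DMA) to 1.85 (HLA-DRB1), and all 8 were still called.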

How the results depend on the processing

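Of 278 refits of the counts of members called, 262 stayed within 1.5 times the reported count, and of 2224 refits of single members 42 lost a call, 16 gained one and 61 changed sign, 0 of them for a called gene. In A375 clone 1.2 against WT, 2 members were called with no minimum difference (reported 0), as were 1423 of 16692 genes. In A375 clone 4.1 against clone 4.2 (reported 0), 1 was called with median-of-ratios scaling, 2 with quantile normalization and 3 with no minimum difference. Of 16692 genes, these settings called 369, 381 and 659. In WM115 clone 1.2 against WT (reported 8), 0 were called in a fit of only those groups, which called 787 of 15747 genes. In WM115 clone 4.2 against WT (reported 5), 2 were called with no filter, where more genes were tested and 908 of 36788 were called. Leaving out single libraries gave 0 to 2 called in A375 clone 1.1 against WT, 0 to 2 in A375 clone 4.1 against clone 4.2, 6 to 8 in WM115 clone 1.2 against WT, 0 to 5 in clone 4.2 against WT, and 0 to 3 in clone 1.3 against WT, the 3 without replicate 3 of clone 1.2, a choice made after seeing the data. The 2 called in A375 clone 1.1 came with 223 of 16638 genes, and the 2 in clone 4.1 against clone 4.2 with 198 of 16616. Apart from the changes in tested genes and libraries that these settings make, the cause was not tested.

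The replicate number as a block, fitted in only the groups compared, gave 0 in WM115 clone 1.2 against WT and 3 in clone 1.1 against clone 1.2 (reported 8), and moved no other count by over 1.5 times. Of all genes, these fits called 127 of 15747 and 980 of 15444. In those comparisons same-numbered libraries did not deviate together (r of -0.122 to 0.0526 over genes). With the block, 0 members were called in A375 clone 4.1 against WT, as without it. A term for libraries above or below a mitochondrial share of 7.5% (WM115) or 2.5% (A375), added after seeing the data, moved no count. All libraries of WM115 WT and clones 1.2 and 1.3 lie above that split, so the term says nothing about these differences. Read depth is unknown, so counting error could not be separated from the spread between libraries.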
